A study of Mus musculus with 2 samples.

Results

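Mir199a-1, Mir199a-2, Mir199b and Mir214 are the genes of miR-199 and miR-214, microRNAs best known from mesenchymal cells. These 4 genes were chosen by name, through the identifiers that the GENCODE M21 annotation gives them, from 2202 microRNA genes counted in each library. The series profiled small RNA of the gastrocnemius, a calf muscle with mixed fibre types, in B6CASTF1/J males at 36 days of age. These mice are first-generation hybrids of a C57BL/6J and a CAST parent. The labels name no treatment. The 2 libraries, replicates 1 and 2, make up 1 group, so the comparisons possible are among genes and between the libraries. The labels call them biological replicates and number their males differently, but give both the same donor identifier. Whether the SD between them is that of 2 mice or of 1 can therefore not be told from the labels. All reads come from whole muscle, in which fewer cells of a type and less RNA per cell cannot be told apart.

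Mature microRNAs are cut from hairpin transcripts and guide the silencing complex to messenger RNAs, mainly by pairing of the seed, bases 2 to 8 of the mature strand. In mouse embryos, miR-199a and miR-214 are made from the noncoding transcript Dnm3os in mesenchyme, where the transcription factor Twist1 controls it. In mouse skeletal muscle cells, miR-214 is known to act on Ezh2, a histone methyltransferase that holds back differentiation. In human lung fibroblasts, miR-199a-5p is known to lower caveolin-1, and in rodents miR-199a-3p is known for its effect on the division of heart muscle cells.

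The hairpins are shown first, because what they share decides which locus a read can be assigned to. Each is given from 5′ to 3′ as listed by RefSeq on GRCm38.p6, with the listed mature sequences in capitals. All 4 are identical to the GENCODE M21 transcripts.
Mir199a-1, chr9:21496495-21496564, minus strand: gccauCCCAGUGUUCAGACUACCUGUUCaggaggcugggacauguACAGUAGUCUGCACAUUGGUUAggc
Mir199a-2, chr1:162217814-162217923, plus strand: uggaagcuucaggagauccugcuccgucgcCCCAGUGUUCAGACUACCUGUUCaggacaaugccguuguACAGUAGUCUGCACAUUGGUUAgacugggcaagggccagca
Mir199b, chr2:32318460-32318569, plus strand: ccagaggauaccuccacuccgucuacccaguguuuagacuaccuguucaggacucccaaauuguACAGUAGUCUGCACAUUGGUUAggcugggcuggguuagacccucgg
Mir214, chr1:162223368-162223477, plus strand: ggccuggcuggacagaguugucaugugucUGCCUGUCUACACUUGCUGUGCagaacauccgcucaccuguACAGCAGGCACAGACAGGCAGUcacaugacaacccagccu

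The mature sequences follow with the seed in capitals, to show which are 1 molecule and which are not.
miR-199a-5p, from Mir199a-1 and Mir199a-2: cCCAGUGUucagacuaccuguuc
miR-199a-3p, from Mir199a-1 and Mir199a-2: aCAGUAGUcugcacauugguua
miR-199b-3p, from Mir199b: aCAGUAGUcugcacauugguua
miR-214-5p, from Mir214: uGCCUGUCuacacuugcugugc
miR-214-3p, from Mir214: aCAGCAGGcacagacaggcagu
The miR-199a-3p and miR-199b-3p sequences are the same 22 bases, held by 3 hairpins, while miR-199a-5p is held whole by 2 hairpins. Neither strand of Mir214 was found in another annotated microRNA hairpin. Within the RefSeq list, the seed of miR-214-3p is also that of miR-761, whose gene Mir761 had 0 counts in replicate 1 and 5 in replicate 2.

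The stretch of the Mir199b hairpin most like miR-199a-5p runs from base 26 to base 48 and differs from it at 1 base, C10U, counted from 1 at the 5′ end of miR-199a-5p. In that stretch, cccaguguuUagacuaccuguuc, the capital marks the base that differs. The identity of Mir199a-1 with Mir199a-2 extends beyond miR-199a-5p by 0 bases on the 5′ side and 4 on the 3′ side, a shared run of 27 bases. Around the 3p strand, the shared runs were 26 bases between Mir199a-1 and Mir199a-2, 28 between Mir199a-1 and Mir199b, and 27 between Mir199a-2 and Mir199b. A read of a listed miR-199 strand therefore matches more than 1 annotated hairpin, unless it runs past these bounds or carries an unmatched base.

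Windows of 20 bases were used to mark how much of each hairpin is found in another microRNA gene, on either strand. In Mir199a-1, 17 of 51 windows (33.3%) were shared, in Mir199a-2 16 of 91 (17.6%), and in Mir199b 10 of 91 (11.0%). The other genes holding them were in each case the remaining 2 miR-199 loci. In Mir214, 0 of 91 windows were shared. Over the whole hairpin, as identical bases over the longer length, Mir199a-2 and Mir199b were 78.2% identical. Mir199a-1 and Mir199a-2, of 70 and 110 bases, were 57.3% identical, although both listed strands are shared. Mir199a-2 and Mir214 reached 65.5%, with 7 bases as their longest run in common. This percentage depends on length and does not by itself mark related hairpins. No baseline for unrelated hairpins was computed. GC content was alike, from 52.7% in Mir199b to 56.4% in Mir214.

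**Figure D1:**
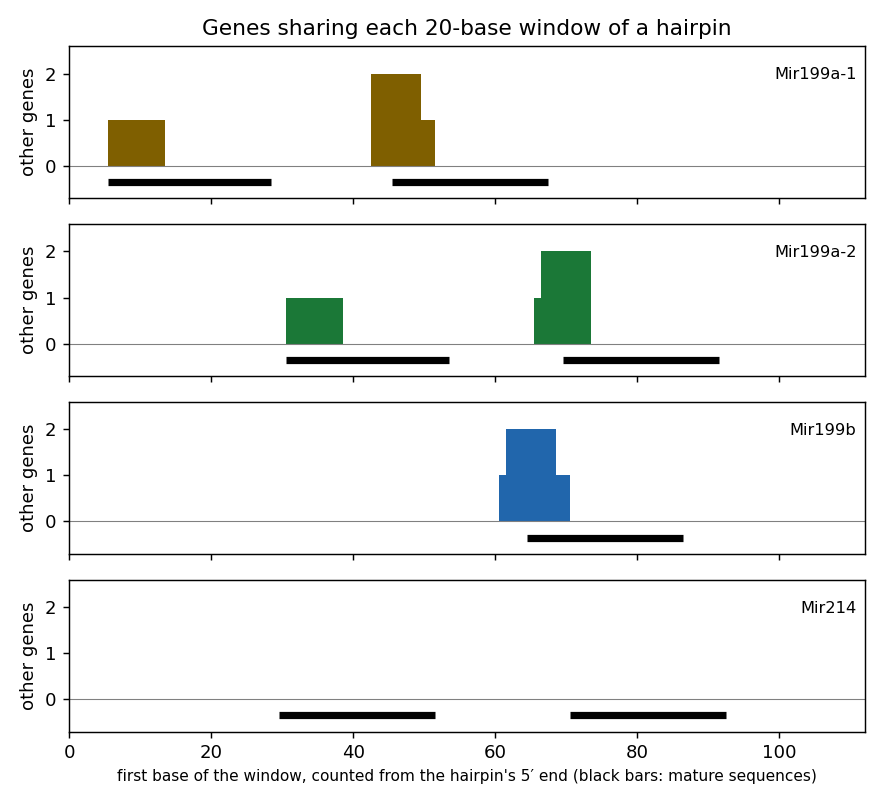
For each hairpin, bars give the number of other microRNA genes that hold the 20-base window starting at that base, counted from the hairpin's 5′ end, and black bars mark the mature sequences listed by RefSeq. Shared windows lie over the listed mature strands of the 3 miR-199 hairpins, and Mir214 has 0 of 91.

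All 4 genes lie opposite an intron of a dynamin gene, a family of membrane-cutting GTPases, in the mm10 annotation. Mir199a-1 (ENSMUSG00000065547.1) lies against Dnm2 on chromosome 9, Mir199b (ENSMUSG00000092807.1) against Dnm1 on chromosome 2, and Mir199a-2 (ENSMUSG00000070126.1) and Mir214 (ENSMUSG00000065516.1) against Dnm3 on chromosome 1. The chromosome 1 pair is on the plus strand, within exons of Dnm3os, which spans 7928 bases. Mir199a-2 begins 191 bases from the start of Dnm3os, and Mir214 follows after a gap of 5444 bases. No other microRNA gene overlaps any of the 4 on either strand, so the column of counts that ignores strand gives them nearly the same values as the column for the gene's own strand. The exception was Mir214 in replicate 1, with 5318 reads ignoring strand, 5316 on its strand and 2 on the opposite strand.

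The first question was how many reads each locus held. Mir214 held most of them, at 5316 counts for replicate 1 and 2910 for replicate 2. Mir199b had 373 and 186 counts, Mir199a-2 had 113 and 62, and Mir199a-1 had 1 and 0. The order was the same in both libraries, and no value of one gene reached that of the next. Of all 2202 genes, 295 (13.4%) had at least 10 counts in both libraries, and 3 of the 4 loci, those besides Mir199a-1, were among them.

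Reads counted on a microRNA gene's own strand numbered 4134880 in replicate 1 and 3219740 in replicate 2. Levels are in CPM, counts per 1000000 of these reads, without division by hairpin length, because a read here is a whole short RNA. Counts are per hairpin, so the 5p and 3p strands are summed. In replicate 1, 70.4% of all reads aligned to several loci, and in replicate 2, 73.3%. Such reads are taken, from the layout of the tables, to be in no gene's count. As a check of the tissue, all 9 skeletal muscle fibre microRNAs listed had counts in both libraries, led by Mir206 with 25833.9 and 28689.6 CPM. The lowest of the 9 had 3.14 and 3.42 CPM. Together the 9 held 2.74% and 3.04% of counted reads. The endothelial Mir126a alone held 8.54% and 9.58%, and Mir143 with Mir145a, of smooth muscle and pericytes, 8.53% and 9.36%. The check therefore shows that fibre microRNAs were present, not that they led the counts. Of all 2202 genes, 582 had a count above 0 in replicate 1 and 531 in replicate 2.

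With exact Clopper-Pearson 95% intervals in brackets, Mir214 reached 1285.6 CPM in replicate 1 (1251.3 to 1320.7) and 904.0 CPM in replicate 2 (871.0 to 937.0). Its mean was 1094.7 ± 270.0 CPM (SD, n = 2), which placed it at rank 63 of 2202 genes. It ranked 59 in replicate 1 and 65 in replicate 2. The 2 intervals do not overlap, but like all intervals in the text they leave out every error besides counting, and PCR copies of 1 molecule are counted separately.

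Mir199b had 90.2 CPM in replicate 1 (81.3 to 99.8) and 57.8 CPM in replicate 2 (49.8 to 66.7), a mean of 74.0 ± 22.9 CPM and rank 178. Mir199a-2, which shares the Dnm3os transcript with Mir214, had 27.3 CPM (22.5 to 32.9) and 19.3 CPM (14.8 to 24.7). Its mean of 23.3 ± 5.71 CPM gave it rank 227. Here the intervals of the 2 libraries overlap. For Mir199a-1, the single read in replicate 1 equals 0.242 CPM (0.00612 to 1.35). The count of 0 in replicate 2 was given a limit of 0.932 CPM, the level of 3 counts, and its exact interval reaches 1.15 CPM. Both limits are for reads aligned to 1 locus and say nothing of reads that Mir199a-1 shares with the other loci.

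**Figure D2:**
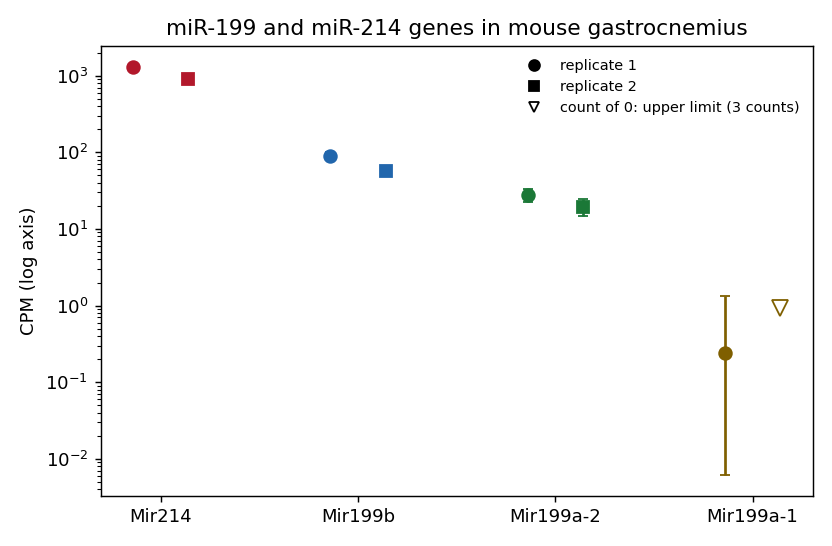
CPM of each gene on a log axis in replicate 1 (circles) and replicate 2 (squares), with exact 95% intervals for counting error, and an open triangle at the 3-count limit where the count was 0. Mir214 stands at 1285.6 and 904.0 CPM, and the 3 miR-199 loci lie at or below 90.2 CPM.

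The proportions of the loci differed little between the 2 libraries. Mir214 made up 91.6% of the 5803 counts of the 4 genes in replicate 1 (90.9 to 92.3) and 92.1% of the 3158 in replicate 2 (91.2 to 93.1). Mir199b made up 6.43% (5.81 to 7.09) and 5.89% (5.09 to 6.77), and Mir199a-2 made up 1.95% (1.61 to 2.34) and 1.96% (1.51 to 2.51). For each gene the interval of one library overlaps that of the other. Together the 4 genes held 0.140% of counted reads in replicate 1 and 0.0981% in replicate 2.

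Mir214 exceeded Mir199a-2, its neighbour in Dnm3os, 47.0-fold in replicate 1 (39.0 to 57.2) and 46.9-fold in replicate 2 (36.5 to 61.4). As a mean log2 ratio this was 5.55 ± 0.0060 (SD, n = 2). Mir214 exceeded Mir199b 14.3-fold and 15.6-fold, a log2 ratio of 3.90 ± 0.094. Mir199b exceeded Mir199a-2 3.30-fold and 3.00-fold, a log2 ratio of 1.65 ± 0.10. These differences are many times the SD between libraries. With 2 libraries, the smallest p of an exact two-sided sign-flip test is 0.5, so none of the 6 pairs can pass a threshold.

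Against Mir199a-1 the limits are wide. In replicate 1, Mir214 exceeded its single read 5316-fold, with a counting interval of 954 to 210010-fold, and Mir199a-2 exceeded it 113-fold (19.9 to 4502). In replicate 2, where Mir199a-1 had 0 counts, Mir214 was 970.0-fold and Mir199a-2 20.7-fold above a floor of 3 counts in that library. The exact intervals, as used for replicate 1, have lower limits of 788-fold for Mir214 and 16.3-fold for Mir199a-2.

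The counted reads of the miR-199 loci were few beside the reads that no locus received. The 3 loci together had 487 counts in replicate 1 and 248 in replicate 2, equal to 0.00351% and 0.00202% of the reads aligned to several loci in those libraries. How many of those reads were miR-199 is not recorded in the tables. The ratios of Mir214 to the miR-199 loci therefore compare reads assigned to 1 locus and are no ratios of the mature molecules.

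The 3 miR-199 loci were set beside other genes whose listed mature strands are all held by another hairpin. Of 90 such genes, 21 (23.3%) had at least 10 counts in both libraries, with a median among those 21 of 256 CPM. By mean CPM, Mir199b stood in place 19 of the 90, Mir199a-2 in place 20 and Mir199a-1 in place 31. Mir30e, of the miR-30 family, was highest at 8281.5 CPM. For Mir199b only 1 strand, the 3p, is listed, against 2 each for Mir199a-1 and Mir199a-2. Its place in this class therefore rests on that strand alone. The 20-base windows within its unlisted stretch like miR-199a-5p were in no other microRNA gene. An exact read of that whole stretch thus matches Mir199b alone among these genes. How many of its counts came from that stretch is not recorded, because counts are per hairpin. Of 868 genes with no listed strand in another hairpin, 214 (24.7%) had at least 10 counts in both libraries, and Mir214 stood in place 50.

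**Figure D3:**
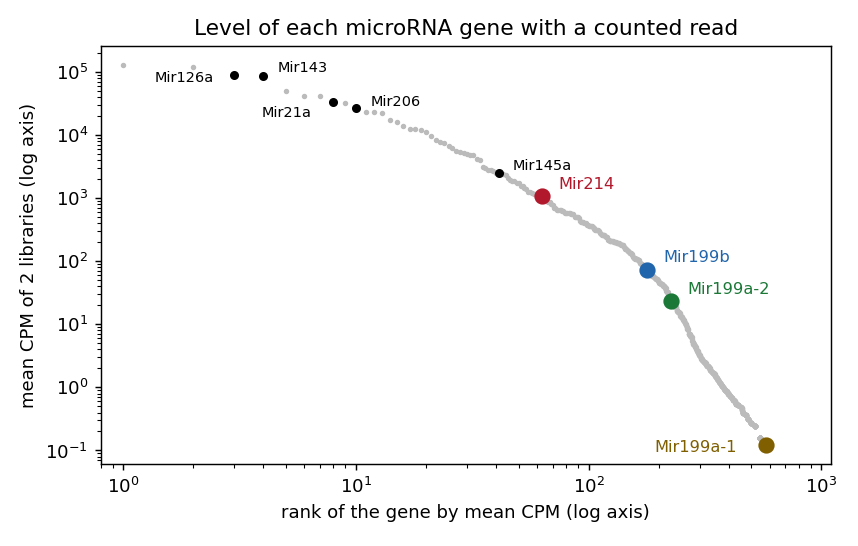
Mean CPM of each microRNA gene with a counted read, by rank, both axes logarithmic; coloured points are the 4 genes and black points name markers of other cells in muscle. Mir214 lies at rank 63 and the 3 miR-199 loci at ranks 178, 227 and 579.

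Other microRNA genes that sit side by side were set beside the gap between Mir214 and Mir199a-2. On the same strand within 10 kb of each other, 84 neighbouring pairs had at least 10 counts in both genes and both libraries. The absolute log2 ratio of counts was 5.55 for Mir214 over Mir199a-2, against a median of 2.28 over these pairs, and 12 pairs had a larger one. The largest was Mir206 with Mir133b, both striated muscle microRNAs. In order of ratio, the next were Mirlet7d with Mirlet7f-1, at 6.93, and Mir27b with Mir24-1 and Mir99a with Mirlet7c-1, each at 6.92. Mir29c with Mir29b-2 followed, at 6.78. The pairs were not separated by whether a mature strand is also held by another hairpin. Reads of such strands can align to several loci and are then taken to be in no count. These ratios therefore compare assigned reads and are no ratios of the mature molecules.

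The neighbours also had similar ratios between libraries. The log2 ratios of replicate 1 over replicate 2 for Mir214 and Mir199a-2 differed by 0.017, where the median over the 84 pairs was 0.15, and 3 pairs differed less. The counting interval of Mir199a-2 is much wider than this, from −0.12 to 0.81 on the log2 scale. A difference that small cannot be resolved at its depth.

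**Figure D4:**
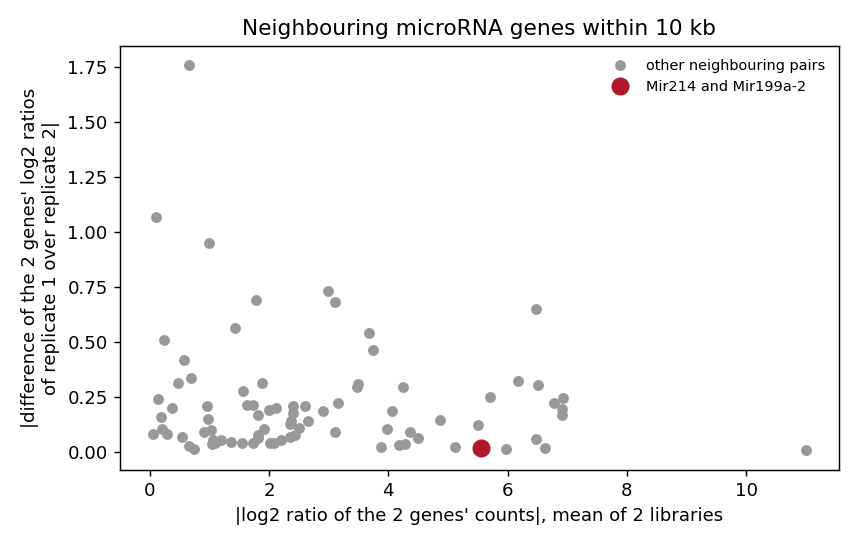
Each point is a pair of neighbouring microRNA genes within 10 kb; the x axis gives the absolute log2 ratio of their counts and the y axis the absolute difference of their log2 ratios of replicate 1 over replicate 2. The pair of Mir214 and Mir199a-2 sits at 5.55 and 0.017, towards the right and near the bottom.

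The second question was whether the 2 libraries differed. The 3 loci that could be compared were higher in replicate 1, and none of them passed 2-fold. Of 261 genes tested, 5.36% passed it, 4.98% by being higher in replicate 1 and 0.383% by being lower. For this, CPM + 1 was scaled by TMM, which sets library sizes after trimming the most extreme genes. A gene needed a mean of 10 CPM or more, which left out Mir199a-1. The log2 ratio of replicate 1 over replicate 2 was 0.34 for Mir214, 0.47 for Mir199b and 0.32 for Mir199a-2, or 1.27-fold, 1.38-fold and 1.25-fold. The counting intervals, without the pseudocount, ran from 0.28 to 0.41 for Mir214 and from 0.22 to 0.74 for Mir199b. With that of Mir199a-2 given above, all 3 overlap.

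Of all 261 genes, 55.9% were higher in replicate 1 by any amount. The median log2 ratio was 0.34 for the 3 loci and 0.05 for all 261 genes, whose median absolute ratio was 0.18. Of the 261 genes, 50 had a higher ratio than Mir214, 26 a higher one than Mir199b and 54 a higher one than Mir199a-2. Scaling to the total count moved the median of the 3 loci to 0.51 and that of all genes to 0.21. The distance between them was 0.30, where it was 0.29 with TMM. A change of scaling shifts all log2 ratios nearly alike, so this distance could hardly change. All 3 loci were higher in replicate 1 under TMM, total-count scaling and DESeq2 size factors. Each ratio sets 1 library against 1 other, without replicates, and was not tested.

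Markers of other cells in the muscle gave the following values beside these. Mir143 and Mir145a, microRNAs of smooth muscle and pericytes, had log2 ratios of replicate 1 over replicate 2 of −0.30 and −0.28, and the endothelial Mir126a had −0.33. The 8 skeletal muscle fibre microRNAs tested had a median of −0.33, and 7 of them were lower in replicate 1. These 3 lists kept that direction under all 3 scalings. The 5 fibrosis regulators, led by Mir21a and Mir29a, had a median of −0.07 with 2 higher in replicate 1, and this median turned to 0.10 under total-count scaling.

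For leukocyte microRNAs the median was −0.28, with 1 of 5 higher in replicate 1, or 2 of 5 under total-count scaling. Their sum was 2326.3 CPM in replicate 1 and 2424.7 CPM in replicate 2. The red cell pair Mir451a and Mir144 summed to 405 and 394 CPM, with 1 of 2 higher in replicate 1. Under total-count scaling both were higher, and under DESeq2 size factors 0 of 2.

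Neuron and glia microRNAs differed most among the lists, in the same direction as Mir214. The sum of the 12 was 4497.8 CPM in replicate 1 and 1268.1 CPM in replicate 2, nearly all from Mir338, a microRNA of myelinating cells. All 3 members tested passed 2-fold, with log2 ratios from 1.63 for Mir338 to 3.08 for Mir183. The minimum of 10 CPM was set on the mean, so a high level in replicate 1 alone could meet it. Mir183 was tested for that reason, at 99.6 against 9.63 CPM. That all 3 passed therefore depends in part on the minimum and does not describe the whole list. The 6 loci of Mir124a and Mir9 were at 0 in both libraries. Of the others, Mir219a-2 had 38 counts in replicate 1 against 15 in replicate 2, or 9.19 against 4.66 CPM. Mir96 had 18 against 5, or 4.35 against 1.55 CPM. Mir219a-1 had 13 against 11, but in CPM it was lower in replicate 1, at 3.14 against 3.42. The part of these cells in the higher Mir214 of replicate 1 was not tested.

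**Figure D5:**
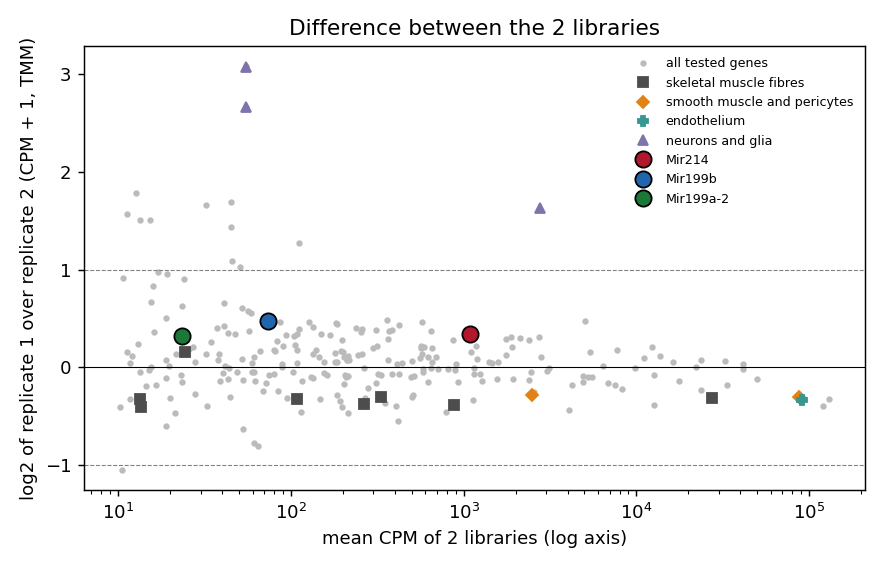
Log2 ratio of replicate 1 over replicate 2 (CPM + 1, TMM) against mean CPM on a log axis for 261 genes, with the 3 loci ringed in black, 4 marker lists in colour and dashed lines at 2-fold. The 3 loci lie between 0.32 and 0.47, above the muscle fibre, smooth muscle and endothelial points and below the neuron and glia points.

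Ratios taken within a library need no scaling between libraries. Mir214 stood at 1.55% of the count of Mir143 in replicate 1 and 0.993% in replicate 2, a 1.56-fold difference. Relative to Mir145a it stood at 53.5% and 34.8%, relative to Mir126a at 1.51% and 0.943%, and relative to Mir206 at 4.98% and 3.15%. Relative to Mir21a, a microRNA of growth and injury that fibroblasts also make, it stood at 3.84% and 2.68%. With each of these 5 as the base, Mir214 was higher in replicate 1, by 1.44-fold to 1.60-fold. Under TMM, all 5 were themselves lower in replicate 1, with log2 ratios from −0.33 for Mir126a to −0.18 for Mir21a. This direction therefore depends on the bases chosen. The 3 neuron and glia microRNAs tested, at 1.63 to 3.08, and 1 leukocyte microRNA, at 0.37, were not used as bases. Their ratios exceed the 0.34 of Mir214, which would be lower in replicate 1 relative to them.

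Genes nearest in level to each locus were named by the distance of log2(CPM + 1) over the 2 libraries. Nearest to Mir214 were Mir337 at 1102.0 ± 175 CPM, Mir652 at 1179.2 ± 220.0 CPM and Mir376c at 1195.1 ± 147 CPM, at distances of 0.13, 0.19 and 0.27. Mir199b lay closest to Mir450b, Mir1981 and Mir495, which had 79.8 ± 13.6, 66.1 ± 10.9 and 83.1 ± 17.9 CPM. For Mir199a-2 they were Mir133a-1, Mir1198 and Mir370, with 24.5 ± 3.95, 21.6 ± 3.31 and 23.3 ± 9.17 CPM. With 2 libraries, this likeness describes level and little else.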

How the data were processed

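The authors deposited 1 table of whole-number read counts per library, on mm10 with annotation M21 per the deposited file descriptions. For the aligner, counter and trimming, no source used here gives a name. Each table holds counts ignoring strand, on the gene's strand (used here) and on the opposite strand, and 4 rows that name no gene, which stayed out of library sizes: counted reads made up 21.0% (replicate 1) and 19.2% (replicate 2) of reads. CAST alleles were not analysed here. How far the spread between the 2 libraries is technical is not known.

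Shares carry exact Clopper-Pearson 95% intervals. Within a library, folds among the 4 loci are of the counts themselves, and log2 ratios and percentages of a marker used counts + 0.5. Ratios between libraries used CPM + 1 with edgeR 4.0.16 TMM factors (1.06 and 0.944) and a minimum mean of 10 CPM. DESeq2 1.42.0 gave alternative size factors. RefSeq tables (GRCm38.p6) gave the hairpins and mature sequences of all 4 genes, matched by symbol. With 1 group, no test between conditions exists.

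Named genes are the 4 loci, the 3 nearest in level to each, the leading 2 of a marker list, and genes sharing windows. Mir761, Mir30e, Mir96, the loci of Mir219a, Mir124a and Mir9, and the pairs with larger ratios were named after their values were seen. The loci and 7 marker lists were chosen with earlier results of these data known. Alternatives were other count columns, library sizes, scalings, pseudocounts, minimums, folds and window lengths, and leaving out each replicate.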

Additional observations from a re-analysis of the deposited data

How the results depend on the processing

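No paired analysis between conditions was possible because the series has 1 group. Of 93 alternative values, 83 stayed on the same side or within the spread, 10 moved and 0 reversed. Many of them are levels or counts of windows, pairs or genes, which cannot be negative and so could not reverse. With the column ignoring strand, whose library sizes are smaller, levels were 1454.8 CPM for Mir214, 98.2 CPM for Mir199b and 30.9 CPM for Mir199a-2. Per 1000000 of all reads, they were 222, 15.0 and 4.71. Under total-count scaling the log2 ratio of replicate 1 over replicate 2 of Mir214 was 0.51. Of the genes tested, 14 passed 2-fold, 41 with no filter beyond 1 count, where 639 genes were tested, and 2 with a minimum of 100 CPM, where 165 were. At 1.5-fold, 27 passed, and none of the 3 loci tested was among them. Leaving out a replicate gave 12 to 13 neighbouring pairs with a larger ratio than Mir214 over Mir199a-2, and Mir214 levels of 904.0 to 1285.6 CPM. The neighbouring pairs could not be compared within 2 kb, since the gap is 5444 bases, or at 100 counts, since Mir199a-2 had 62 in replicate 2. Depth limits the ratio of Mir199a-2. Mir199a-1 had 1 read in all, and each of its listed strands is also held by another hairpin. Its count is therefore limited by which reads can be assigned to it as well as by depth.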
